A study of Mus musculus with 5 samples.

Results

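Mitochondrial ribosomal protein genes are the nuclear genes whose products, together with the ribosomal RNAs of the mitochondrial genome, build the ribosome inside mitochondria. They were taken here as every listed protein-coding gene of GENCODE M21 whose symbol begins with Mrpl or Mrps followed by a digit, which gave 78 of the 12934 genes in the deposited counts. No protein-coding gene of that name was missing from the counts, and all 78 were among the 12483 genes tested. A processed pseudogene, Mrpl48-ps, was listed as well and was not counted as a member. By standard nomenclature 51 of the genes encode proteins of the large subunit and 26 proteins of the small subunit. The remaining gene, Mrps36, carries a ribosomal name but encodes a component of the oxoglutarate dehydrogenase complex.

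The genes were read in EpH4 cells, an immortalized, non-transformed mouse mammary epithelial cell line. The cells expressed Cas9 from a lentivirus, selected with blasticidin, and a second lentivirus, selected with puromycin, gave them either a control guide RNA (sgControl, 3 libraries) or a guide RNA against Mef2d (sgMef2d, 2 libraries). Both groups therefore share Cas9 and both selections and differ in the guide. The labels number the libraries without saying which guide against Mef2d each one carries or whether they came from separate cultures, so p-values measure the spread between these libraries. RNA was poly(A)-selected, and the counts per gene summed to between 13601145 and 20498563 per library. The question of the comparison was which genes depend on MEF2D, a MADS-box transcription factor.

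Mitochondrial ribosomes translate the few proteins that the mitochondrial genome still encodes, all of them core subunits of the respiratory chain and of ATP synthase. Their RNAs are transcribed in the mitochondrion, while every one of their proteins is made in the cytosol from nuclear genes and imported. Some of these proteins have a counterpart in the bacterial ribosome, and the others were added in the mitochondrial lineage. Promoters of nuclear genes for mitochondrial proteins are known for binding sites of ETS factors such as GABP, of NRF1 and of YY1, and MYC is known to act on many of them. MEF2 factors bind an A/T-rich element with the outer letters CTA and TAG.

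The promoters of called members that lie outside annotated exons are shown first, since the genes that passed the test are the ones the results turn on. Of the 4 members past the threshold described below, Mrpl58 and Mrpl34 had the 250 bases before the RefSeq start free of annotated exons. The sequences are from RefSeq on GRCm38.p6, at chr11:115403502-115403751 (plus strand) for Mrpl58 and chr8:71464676-71464925 (plus strand) for Mrpl34. Capitals mark the letters CCGGAAG, the core of ETS sites.
Mrpl58: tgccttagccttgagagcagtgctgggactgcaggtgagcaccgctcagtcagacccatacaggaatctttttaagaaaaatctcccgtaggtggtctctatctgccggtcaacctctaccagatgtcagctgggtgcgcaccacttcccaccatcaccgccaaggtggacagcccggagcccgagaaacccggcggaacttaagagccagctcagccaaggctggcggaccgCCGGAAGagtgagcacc
Mrpl34: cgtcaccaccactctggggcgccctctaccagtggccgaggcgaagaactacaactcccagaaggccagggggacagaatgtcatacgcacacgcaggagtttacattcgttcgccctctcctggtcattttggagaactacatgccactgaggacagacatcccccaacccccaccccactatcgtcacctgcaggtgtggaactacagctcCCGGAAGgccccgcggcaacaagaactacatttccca
In Mrpl58 the first of these letters lay at position -17 from the start, and in Mrpl34 at -37. The RefSeq windows of Mrps7 and Mrpl18, the other called members, lie within annotated exons and are not printed.

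RefSeq windows from 250 bases before to 50 after the start were at hand for 69 of the 78 members and for 9362 of the genes tested. Each motif was searched on both strands, and matches of different motifs were allowed to overlap. The ETS letters CCGGAAG stood in 24 of the 69 windows (34.8%), beside 19.7% of the windows of all genes tested. The NRF1 letters, GCGC and TGCGC with any base between them, stood in 13 windows (18.8%, all genes 11.2%), and the YY1 letters AAGATGG in 13 as well (18.8%, all genes 7.53%). The 7-letter form of the YY1 element was chosen after a longer form of it had been counted in 5 windows (7.25%, all genes 2.30%). The E-box CACGTG, to which MYC can bind, was in 5 windows (7.25%, all genes 10.6%), and CCAAT in 27 (39.1%, all genes 39.8%). These are descriptions of letters, without a test. The median log2 fold change of the 24 genes with ETS letters was 0.13, the same at this precision as that of the members without them. Among all genes tested it was 0.024 with these letters and -0.0022 without.

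Since the guide was aimed at a MEF2 gene, the windows were also searched for CTA and TAG with any 4 bases between them, the outer letters of the MEF2 element. They were found in 6 windows (8.70%), beside 2.76% of the windows of all genes tested. In a full element of this form the middle 4 letters are A or T, and none of the 6 matches had such a middle. Elements with other outer letters were not searched for. Each match is given below with up to 10 bases on either side, and capitals mark the matched letters.
Mrps15: tgtgtgacccCTATGAATAGgtcgctcaac
Mrpl28: gcgcgctctcCTAGAAGTAGag
Mrpl43: tcctggctctCTAACCGTAGccat
Mrpl32: ggagagtcacCTAGGGGTAGctgggagttg
Mrpl46: ttctagtggtCTAACACTAGaatttcacct
Mrps11: aggtgaaattCTAGTGTTAGa
They lie on GRCm38.p6 at chr4:126046680-126046709 (plus strand), chr17:26123531-26123552 (plus), chr19:45006393-45006416 (minus), chr13:14613157-14613186 (minus), chr7:78783160-78783189 (minus) and chr7:78783160-78783180 (plus), in the order printed. The match of Mrpl46 and that of Mrps11 are the same bases read on opposite strands, because the starts of these genes face each other. The middle held 3 A or T letters in Mrps15, 2 in Mrpl28, Mrpl46 and Mrps11, 1 in Mrpl43 and 0 in Mrpl32. The median log2 fold change was 0.20 over these 6 members and 0.13 over the members without the letters. Among all genes tested it was 0.0019 with these letters and 0.0050 without, which is the other order. With all 5 libraries none of the 6 passed the threshold for a call. Without sgControl replicate 1, a library described below, all but Mrpl32 (adjusted p = 0.287) were called higher by edgeR, as were 55.1% of the 78 members and 14.6% of all genes, and binding was not measured here.

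The targeted gene, Mef2d, had 64.3, 76.9 and 71.5 CPM (counts scaled to a common library total) in the sgControl libraries and 64.2 and 65.8 CPM in the sgMef2d libraries, always in the order of the replicate numbers. The groups overlapped, and edgeR's quasi-likelihood test put the log2 fold change at -0.12 (adjusted p = 0.400). Without sgControl replicate 1 it was -0.19, with an adjusted p of 0.00550. A guide can end the protein without lowering the transcript, and counts per gene do not show this. The study read the protein by immunoblot, which was not analysed here. Of 10 mammary epithelial markers, 9 were listed (Krt19 was not), with Krt8 and Krt7 the most abundant, 1 passed the threshold as higher (Cldn4) and 1 as lower (Krt18). Of 8 myoepithelial and basal markers 5 were listed, Myh11, Oxtr and Cnn1 were not, and 4 passed as higher and 1 as lower. Their summed level was 482.6 to 491.8 CPM in sgControl and 949.5 to 1008 CPM in sgMef2d. Their part in the results below was not tested. Of 9 leukocyte and endothelial markers, Cd68 alone was listed, at 0.660 to 1.28 CPM, and of 8 fibroblast markers 6 were listed, with 2 called higher and 1 lower. The fibroblast sum was 643.1 to 767.3 CPM in sgControl and 608.2 to 649.3 CPM in sgMef2d.

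The library sgControl replicate 1 stood apart from the other sgControl libraries, and it did so for the mitochondrial ribosomal protein genes in the direction of sgMef2d. The chi-square per degree of freedom over all genes, which is 1 for counting error alone, was 1.98 between sgControl replicates 2 and 3. Replicate 1 gave 10.3 and 13.3 against them. Between replicates 2 and 3 and the sgMef2d libraries it was 10.6 to 12.7, and between replicate 1 and sgMef2d 11.8 and 12.5. Over the members it was 1.77 between replicates 2 and 3, 3.37 and 3.56 between each of them and replicate 1, and 1.53 between the sgMef2d libraries. All these pairs differed by more than counting error, so no library was counted as a repeat of another. Results are therefore given for all 5 libraries and without sgControl replicate 1.

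Added over the 78 genes, the level was 3937 CPM in sgControl replicate 1, 3541 CPM in replicate 2 and 3458 CPM in replicate 3, against 3993 and 4008 CPM in sgMef2d. This made a mean of 3645 ± 255.9 CPM in sgControl (SD, n = 3) and of 4001 ± 10.78 CPM in sgMef2d (SD, n = 2). Both sgMef2d libraries were thus above all sgControl libraries, but the sum of sgControl replicate 1 lay nearer to sgMef2d than to the other controls. The chi-square per degree of freedom over the members was 3.999 and 4.117 between sgControl replicate 1 and the sgMef2d libraries. It was 3.37 and 3.56 between replicate 1 and the other controls, and 2.19 to 3.41 between the other controls and sgMef2d. This measure scales each pair to its own member totals and grows with depth. It therefore does not show which libraries were nearer in level. The order of the sums held for the typical gene: the median of log2 CPM relative to the sgControl mean was 0.11, -0.054 and -0.061 in the controls and 0.13 and 0.14 in sgMef2d. The corresponding medians over all genes tested were between -9.391e-05 and 0.0069. In 72 of the 78 members sgControl replicate 1 exceeded the mean of replicates 2 and 3, with a median difference of 0.17 on the log2 scale. Over all genes tested 49.96% did so. In 28 members sgControl replicate 1 was above both sgMef2d libraries, in 15 it lay between them, and in 35 it was below both. In bulk RNA a larger share of cells with the transcript and more transcript per cell cannot be told apart, and CPM are shares of a library.

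**Figure D1:**
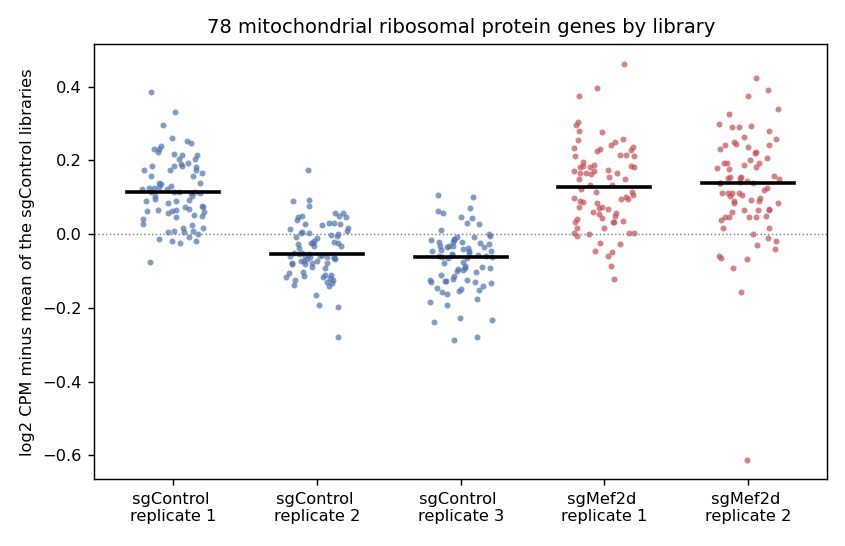
Each point is 1 of 78 mitochondrial ribosomal protein genes in 1 library, on the vertical axis as log2 CPM minus its mean over the sgControl libraries. Black bars are medians over the genes, at 0.11, -0.054 and -0.061 in sgControl replicates 1 to 3 and 0.13 and 0.14 in the sgMef2d replicates, so that the bar of sgControl replicate 1 sits with those of sgMef2d.

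With all 5 libraries, a small shift towards higher levels in sgMef2d ran through most of these genes, while few passed the test singly. The median log2 fold change was 0.12 over the 78 members, beside 0.0031 over all genes tested, and 67 of the members were above 0 (85.9%, all genes 50.7%). With edgeR and Benjamini-Hochberg adjustment over all genes tested, 4 members were called at an adjusted p below 0.05. All 4 were higher in sgMef2d, a share of 5.13%, beside 3.67% of all genes called higher, 4.28% called lower and 7.95% called in either direction. DESeq2 and limma-voom also called 4 members each, all higher, beside 2.98% and 3.61% of all genes. The share called is therefore near the background. At an unadjusted p below 0.05, 19 members were higher and 0 lower, beside 11.2% and 12.0% of all genes. In 33 members both sgMef2d libraries were above all sgControl libraries, and in 1, Mrpl44, both were below, beside 20.6% and 20.5% of all genes. The changes were small in size: no member reached an absolute log2 fold change of 0.5, as 9.38% of all genes did, and for 73 members the 95% interval lay wholly between -0.5 and 0.5.

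Mrps7 had the smallest p of the members. Its product, uS7m, is a head protein of the small subunit whose bacterial counterpart starts the folding of the head. The gene lies at chr11:115603925-115608036 (GRCm38, plus strand). Its level was 67.6, 71.7 and 63.1 CPM in sgControl, and 88.7 and 82.4 CPM in sgMef2d. The groups did not overlap, and sgControl replicate 1 was in the middle of its own group. The log2 fold change was 0.34 (standard error 0.072, adjusted p = 0.0142), a rise of 26.8%.

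Mrpl58, on the same chromosome at chr11:115403752-115412674 (plus strand), encodes mL62, a peptidyl-tRNA hydrolase that became part of the large subunit and frees stalled ribosomes. Its level was 31.6, 33.5 and 30.4 CPM in sgControl and 41.3 and 39.2 CPM in sgMef2d. Again every sgMef2d library was above every sgControl library. The log2 fold change was 0.34 (standard error 0.077, adjusted p = 0.0219).

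Mrpl18, at chr17:12911349-12916345 (minus strand), encodes uL18m, a protein of the large subunit that also takes part in the import of 5S rRNA. It was at 104.0, 100.6 and 99.0 CPM in sgControl and at 119.6 and 119.7 CPM in sgMef2d. The spread within each group was small beside the gap between them, and the log2 fold change of 0.24 (standard error 0.058) had an adjusted p of 0.0275. Mrpl34, at chr8:71464959-71465747 (plus strand), encodes bL34m, a short basic protein of the large subunit. It was at 31.4, 29.6 and 29.5 CPM in sgControl and at 37.3 and 36.6 CPM in sgMef2d, with no overlap. Its log2 fold change was 0.29 (standard error 0.076, adjusted p = 0.0394).

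These calls depended on which library was left out and on the method. Without sgControl replicate 1 the adjusted p was lower for all 4, at 3.93e-07 for Mrps7, 2.59e-04 for Mrpl58, 6.00e-06 for Mrpl18 and 6.12e-04 for Mrpl34. Mrps7 was called under 14 of 16 alternatives, Mrpl58 under 13, Mrpl18 under 9 and Mrpl34 under 8. Without sgMef2d replicate 1 the adjusted p was 0.232 for Mrps7, 0.265 for Mrpl58, 0.260 for Mrpl18 and 0.299 for Mrpl34, and without sgMef2d replicate 2 it was 0.0903, 0.147, 0.289 and 0.281. Leaving out sgControl replicate 3 took Mrpl58 to 0.0604, and it took Mrpl18 and Mrpl34 to 0.0817 and 0.0998, as leaving out sgControl replicate 2 took them to 0.112 and 0.134. With the replicate number as a block, the adjusted p was 0.0697 for Mrpl18 and 0.0664 for Mrpl34, and DESeq2 gave 0.112 for Mrpl34. With the trend of each library with gene length and GC content removed, the adjusted p was 0.0507 for Mrpl18 and 0.163 for Mrpl34. The log2 fold change of these 4 genes was above 0 under every alternative run.

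Just outside the threshold were Mrpl57 and Mrps12. Mrpl57, which encodes mL63 of the large subunit, was at 17.2, 16.7 and 17.4 CPM in sgControl and at 20.8 and 22.2 CPM in sgMef2d (log2 fold change 0.33, adjusted p = 0.0517). Mrps12 encodes uS12m, which in the bacterial ribosome lies at the decoding centre, and had the largest log2 fold change of the members, 0.40 (standard error 0.11, adjusted p = 0.0530). It was at 30.0, 23.9 and 22.6 CPM in sgControl and at 34.9 and 33.2 CPM in sgMef2d. For both genes the groups did not overlap, but for Mrps12 sgControl replicate 1 lay well above the other controls.

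**Figure D2:**
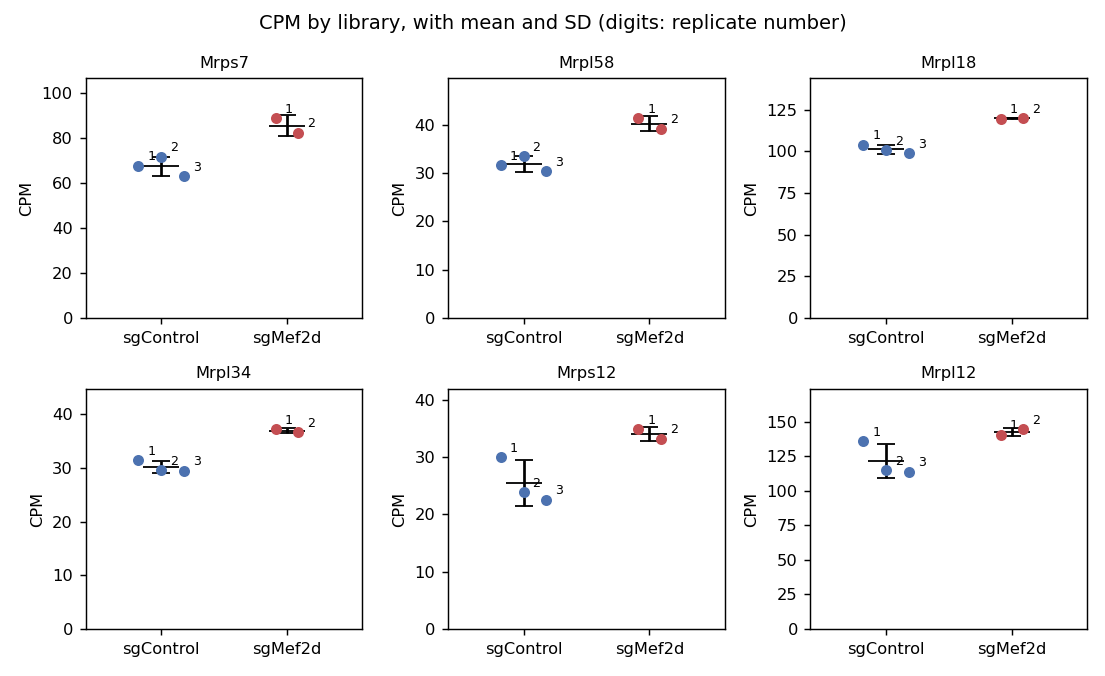
CPM of 6 members in each library, with the mean and SD of each group in black, each vertical axis starting at 0. Mrps7, Mrpl58, Mrpl18 and Mrpl34 passed the threshold with all 5 libraries, while in Mrps12 and Mrpl12 sgControl replicate 1, at 30.0 and 135.7 CPM, sits between the other sgControl libraries and sgMef2d.

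At the other end of the range were Mrpl53, Mrpl23, Mrps18c and Mrps33. Mrpl53 had the lowest log2 fold change, -0.36, but with a standard error of 0.34 and an adjusted p of 0.578. It was read at 1.66, 1.14 and 1.47 CPM in sgControl and at 1.35 and 0.875 CPM in sgMef2d, and the groups overlapped. Its lowest count in a library was 13, and 82.0% of the 50-base words of its transcripts also occur in Gm42688, an annotated gene that covers 88.0% of its exons on the same strand, so that its count is uncertain. Mrpl23, whose product uL23m lies by the exit of the peptide tunnel, stood at -0.11 on the log2 scale (adjusted p = 0.590), and Mrps18c, for a bS18m protein of the small subunit, of -0.086 (adjusted p = 0.724). Mrps33 was at 38.8, 25.9 and 25.9 CPM in sgControl and at 29.2 and 29.4 CPM in sgMef2d (log2 fold change -0.063, adjusted p = 0.852). Its negative value rested on sgControl replicate 1, as without that library it was 0.17. Mrps18c likewise moved to 0.045 without that library, and Mrpl23 to -0.0047.

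Seen by their place in the ribosome, the classes of members had medians close to each other. For the large subunit 45 of 51 genes were above 0, their median log2 value being 0.12 and 3 being called, and for the small subunit 21 of 26, with a median of 0.13 and 1 called. Among large subunit genes, the 30 with a bacterial counterpart had a median of 0.11, from Mrpl23 at -0.11 to Mrpl34 at 0.29, and the 21 mitochondria-specific ones of 0.13, from Mrpl53 at -0.36 to Mrpl58 at 0.34. Among small subunit genes, the 16 with a bacterial counterpart had a median of 0.16, from Mrps18c at -0.086 to Mrps12 at 0.40, and the 10 mitochondria-specific ones of 0.11, from Mrps33 at -0.063 to Mrps26 at 0.25. Differences between these classes were not tested. Mrps36, which is no ribosome subunit, was at 23.6, 22.3 and 22.1 CPM in sgControl and at 23.4 and 25.0 CPM in sgMef2d, which gave 0.090 on the log2 scale (adjusted p = 0.585).

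**Figure D3:**
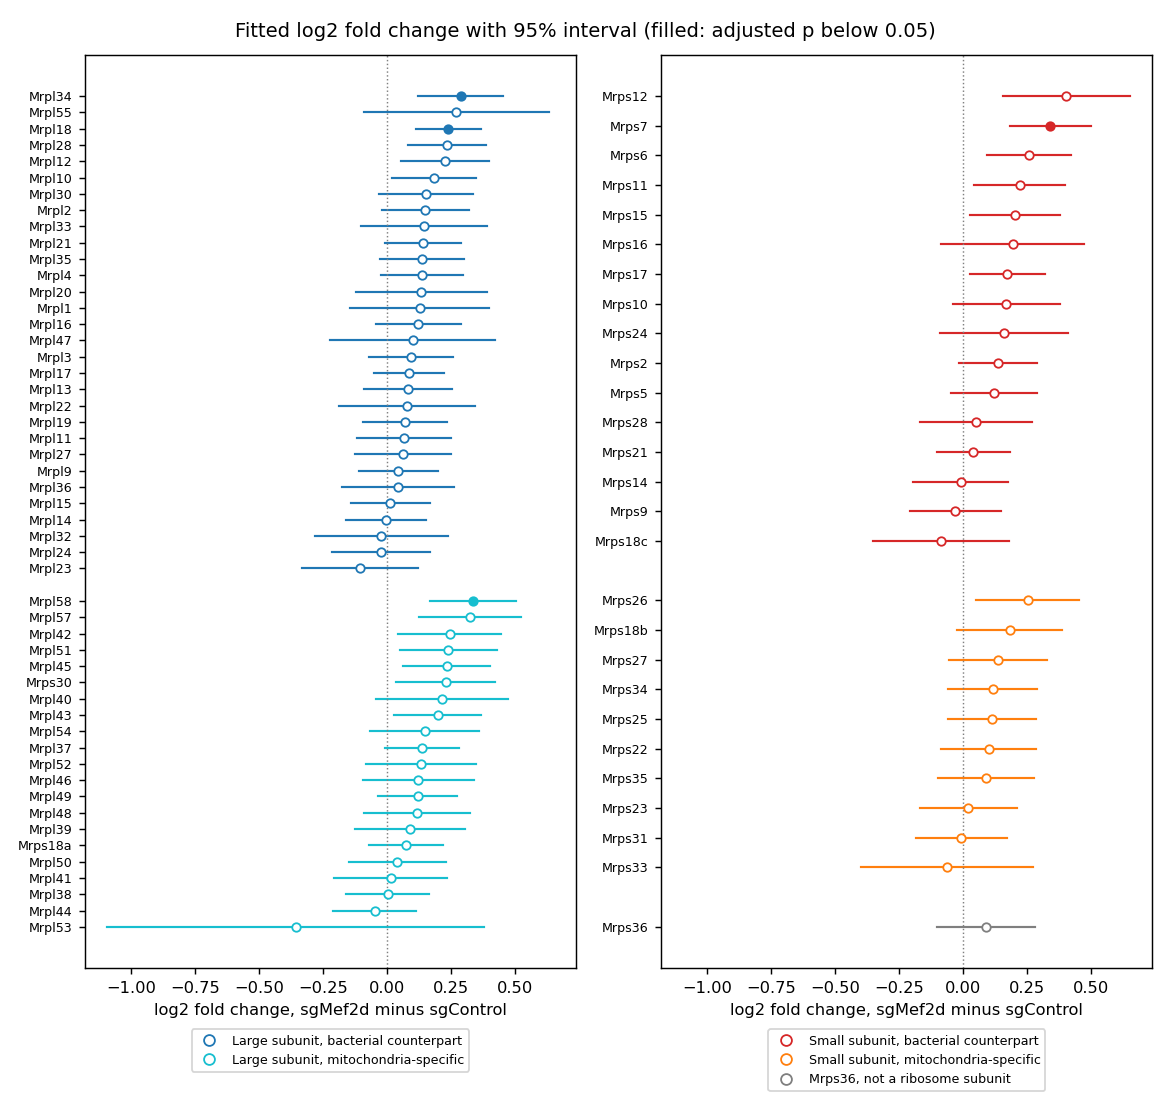
Log2 fold change (sgMef2d minus sgControl, horizontal axis) of each of the 78 members with its 95% interval, by subunit and family, and filled where the adjusted p is below 0.05. Most points lie to the right of 0 (67 of 78), 4 are filled, and the longest interval is that of Mrpl53.

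The number of calls rose when sgControl replicate 1 was left out. With 2 libraries on each side, 43 of the 78 members were called, all higher in sgMef2d. This is 55.1%, beside 14.6% of all genes called higher, 14.8% called lower and 29.4% called in either direction. The 4 members called with all libraries were among the 43, and 39 were gained. The median log2 fold change was 0.18, with 74 members above 0 (94.9%, all genes 51.2%). In 64 members both sgMef2d libraries were above sgControl replicates 2 and 3, and in 1 both were below, beside 31.3% and 30.6% of all genes. Of the large subunit genes 29 were called and of the small subunit genes 14. In that fit 3639 genes of the whole table were called, against 992 with all libraries.

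The members gained with the smallest p were Mrpl12, Mrps12, Mrpl51 and Mrpl42. Mrpl12 encodes bL12m of the ribosome stalk, to which translation factors bind, and was the member with the highest level per length. It was at 135.7, 114.9 and 113.7 CPM in sgControl and at 140.5 and 144.6 CPM in sgMef2d. The log2 fold change was 0.23 (adjusted p = 0.106) with all libraries and 0.32 (adjusted p = 1.32e-08) without sgControl replicate 1. Mrps12, given above, went from 0.40 to 0.55 (adjusted p = 7.40e-08). Mrpl51 was at 84.2, 73.8 and 67.1 CPM in sgControl and at 89.3 and 88.5 CPM in sgMef2d, and went from 0.24 (adjusted p = 0.120) to 0.33 (adjusted p = 3.16e-07). Mrpl42 was at 59.8, 50.6 and 47.6 CPM in sgControl and at 63.7 and 61.8 CPM in sgMef2d, and went from 0.25 (adjusted p = 0.132) to 0.35 (adjusted p = 2.01e-06). In each of these 4 genes sgControl replicate 1 was the highest control and still below both sgMef2d libraries. Leaving out any other library gave fewer calls than all 5 libraries: 2 members were called higher without sgControl replicate 2, 1 without sgControl replicate 3, and 0 without sgMef2d replicate 1 or 2. The calls over all genes fell as well, to 2.4%, 3.14%, 1.06% and 1.07% higher in these fits, against 2.56%, 1.28%, 0 and 0 of the members. The edgeR counts at an unadjusted p below 0.05, without the sgMef2d replicates in turn, were 10 and 7 members, all higher (12.8% and 8.97%, all genes 6.3% and 5.57%), and DESeq2 with all libraries called 4. Which of the sgControl libraries better stand for the control cells cannot be told from these data.

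**Figure D4:**
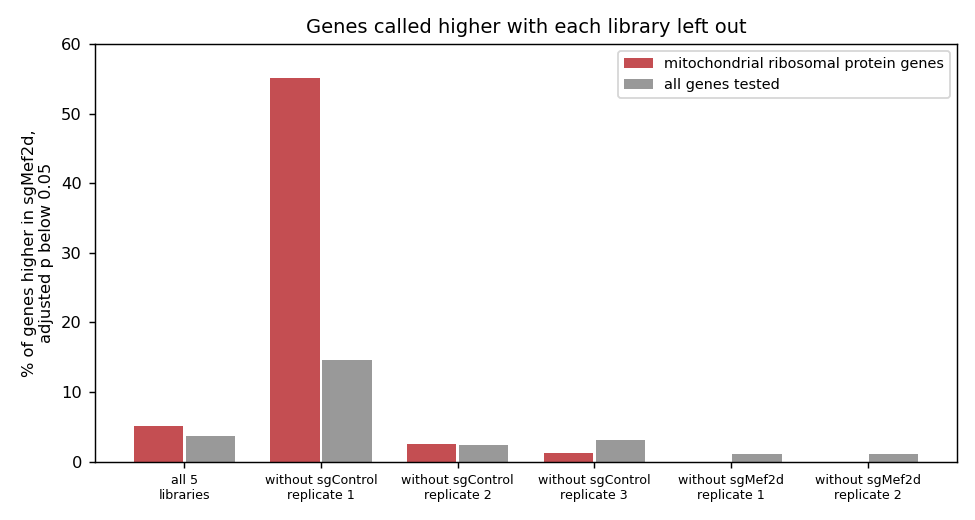
Percent of genes called higher in sgMef2d (adjusted p below 0.05, edgeR) with all 5 libraries and with each library left out, for the 78 members (red) and all genes tested (grey). The red bar is 5.13% with all libraries, 55.1% without sgControl replicate 1, and 0 without either sgMef2d library.

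The levels of the members were compared per length, as CPM per kilobase of annotated exon (RPKM), with exon length taken over all transcripts of a gene. The median sgControl level was 17.7 RPKM, beside 6.53 RPKM over all genes tested, and the middle 50% of members lay between 9.32 and 30.7 RPKM. The highest were Mrpl12 at 79.3, Mrps21 at 72.7, Mrpl18 at 72.4 and Mrps28 at 58.8 RPKM. The lowest were Mrpl53 at 1.80, Mrpl48 at 3.10, Mrps35 at 3.25 and Mrps10 at 3.61 RPKM. The large and small subunits had similar medians, 17.7 and 16.6 RPKM. Retained introns and long alternative ends in the annotation lengthen the exon total of some genes and lower their RPKM. None of the lowest 4 passed the threshold with all 5 libraries, and their log2 fold changes were -0.36, 0.12, 0.089 and 0.17. Without sgControl replicate 1, Mrps10 alone of these 4 passed it with edgeR (0.26, adjusted p = 0.0114). Of the highest 4, Mrpl18 passed it with all 5 libraries, while Mrpl12, Mrps21 (0.040, adjusted p = 0.767) and Mrps28 (0.051, adjusted p = 0.809) did not. Without sgControl replicate 1, Mrpl12 and Mrps28 (0.17, adjusted p = 0.0409) passed it as well, and Mrps21 (0.032, adjusted p = 0.752) did not.

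**Figure D5:**
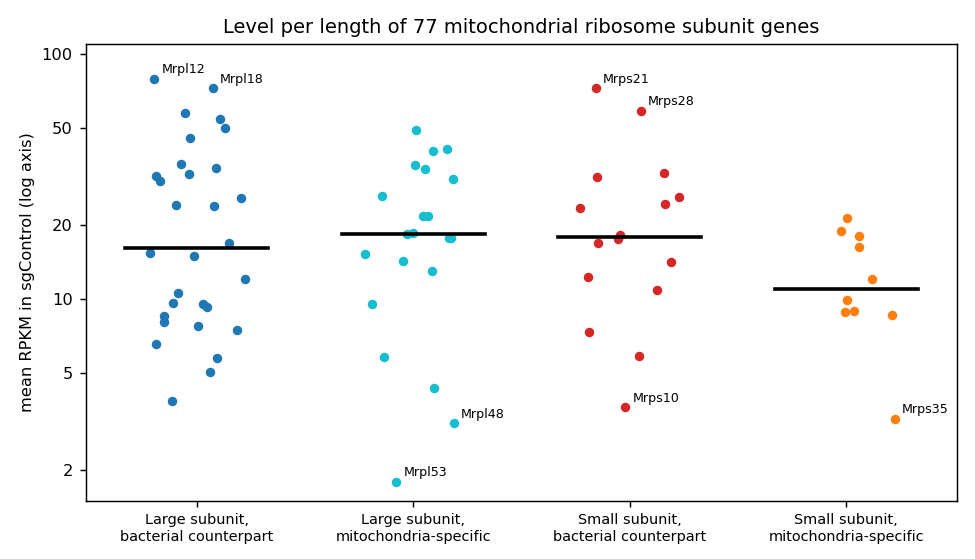
Mean sgControl level in RPKM (log axis) of the 77 genes for ribosome subunits, by subunit and family, with the median of each class as a black bar. The levels run from 1.80 RPKM in Mrpl53 to 79.3 RPKM in Mrpl12, and the classes overlap.

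Counting bears on some of these values. The members had a median annotated exon length of 2394 bases, against 4356 over all genes tested, and a median GC content of 49.8%, against 49.4%. With the trend of each library with length and GC removed, the median log2 fold change of the members was 0.10 and 7 were called, all higher (8.97%). Calls over all genes rose in that fit too, from 992 to 1315, with 5.1% higher. Beside Mrpl53, over 20% of the 50-base words were shared with another gene in Mrps34 (34.2%, Nme3), Mrpl22 (22.4%, the pseudogene Gm6997) and Mrpl27 (22.3%, the pseudogene Gm6304), and their values are uncertain where reads were split. With all 5 libraries Mrps34, Mrpl22 and Mrpl27 had log2 fold changes of 0.12, 0.078 and 0.064, none of them called. Without sgControl replicate 1, edgeR called Mrpl22 higher (0.22, adjusted p = 0.0327) and not Mrps34 or Mrpl27. In 33 members at least 1 word occurred in a pseudogene. Exons of 28 members overlapped a gene on the other strand. The called members Mrps7 (11.9% of its exon bases, Gga3 and Mif4gd), Mrpl18 (10.1%, Tcp1) and Mrpl58 (0.060%, Ict1os) are among them. The libraries mark strand, but the sources used here do not say whether the counting used it, so the values of Mrps7 and Mrpl18 are uncertain to that extent. The 58 members with at most 20% of words shared and at most 10% of exons overlapped had a median of 0.13 on the log2 scale, and the other 20 of 0.12.

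The members were spread over 17 chromosomes. Chromosome 11 carried 11 of them, Mrps7 and Mrpl58 included, and all 11 were above 0, with a median log2 fold change of 0.19, against 0.074 over the 997 genes tested on that chromosome. On chromosome 17 were 8 members, with a median of 0.16, against 0.011 over 629 genes. On chromosome 1, 2 of 5 members were above 0, with a median of -0.0094, against -0.057 over 771 genes.

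Many members start close to another gene. In 33 of 78 (42.3%) the start lay within 1000 bases of the start of a coding gene on the other strand, beside 16.9% of the 11654 protein-coding genes listed, and in 18 (23.1%) the starts pointed away from each other, beside 10.7%. In 17 of these divergent pairs both genes were tested. On the log2 scale the members of the pairs had a median of 0.14 and their neighbours of 0.11, with 12 of the 17 neighbours above 0 and 0 past the threshold. Mrps12 (0.40) starts 172 bases from Sars2 (0.30, adjusted p = 0.131), the gene of the mitochondrial seryl-tRNA synthetase. The closest divergent starts were those of Mrpl54 (0.15) and Apba3 (0.030), 26 bases apart, then of Mrps18c (-0.086) and Helq (0.15), and of Mrps34 (0.12) and Eme2 (1.9e-04), both 29 bases apart. Mrps18b (0.18) and Ppp1r10 (0.22) start 45 bases apart, and Mrpl57 (0.33) and Ska3 (-0.0080) 49 bases apart. The genes of a pair thus had like values in some pairs and unlike values in others. Mrpl46 and Mrps11 have starts that overlap, and their log2 fold changes were 0.12 and 0.22. Of the neighbours with overlapping starts 1 was called, Wdfy1 (-0.43, adjusted p = 0.00558), whose start lies by that of Mrpl44 (-0.046, adjusted p = 0.763). Mrpl44 was only just lower in sgMef2d, at 35.37 and 34.34 CPM, against 35.4, 37.3 and 35.4 CPM in sgControl.

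The other parts of mitochondrial translation were read from lists of genes by role. By unadjusted p below 0.05 with edgeR, 1 of the 5 ribosome subunits with other names was higher and 0 lower, beside 11.2% and 12.0% of all genes. These 5 had 0 calls with edgeR and a median of 0.021 on the log2 scale. They were Dap3 (-0.025), Ptcd3 (0.021) and Chchd1 (-0.18), small subunit proteins, Aurkaip1 (0.075), also of the small subunit, and Gadd45gip1 (0.22, adjusted p = 0.0863) of the large subunit. Without sgControl replicate 1, 1 of them was called higher, Gadd45gip1 (adjusted p = 0.00762). Chchd1 was called lower under 1 of 16 alternatives, the replicate block with the length and GC trend removed (-0.30, adjusted p = 0.0274).

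Of 16 translation factors tested, 1 was called higher (6.25%, all genes 3.67%), and 0 lower. Without sgControl replicate 1, 2 of the 16 were called higher and 0 lower, beside 14.6% and 14.8% of all genes. The factor called with all libraries was Tufm, which encodes the elongation factor EF-Tu that carries aminoacyl-tRNA to the mitochondrial ribosome. Tufm was at 86.8, 75.4 and 81.8 CPM in sgControl and at 93.9 and 104.0 CPM in sgMef2d, without overlap (log2 fold change 0.28, adjusted p = 0.0443). It lost the call without any single library other than sgControl replicate 1, with adjusted p between 0.0773 and 0.486, with limma-voom (0.0524) and with the length and GC trend removed (0.0599). The list had a median of 0.11, and Gfm1, for the elongation factor that moves the ribosome along, had 0.19 (adjusted p = 0.0854). The median was 0.045 over 28 assembly and rRNA modification factors, -0.0021 over 22 genes that charge mitochondrial tRNAs and 0.073 over 26 genes that copy and process mitochondrial nucleic acids. The tRNA list holds aminoacyl-tRNA synthetases and the amidotransferase subunits Qrsl1, Gatb and Gatc, and the other mainly genes of transcription and RNA maturation, with Polg, Polg2, Twnk and Ssbp1 of DNA replication. None of these 3 lists had a call with edgeR and all 5 libraries, and over all 7 related lists edgeR and DESeq2 each called 3 genes and limma-voom 2. By unadjusted p below 0.05 the 3 lists had 3 genes higher and 1 lower, 2 higher and 3 lower, and 6 higher and 0 lower. The shares higher were 10.7%, 9.09% and 23.1%, beside 11.2% of all genes higher and 12.0% lower. Without sgControl replicate 1, 2 genes were called higher and 0 lower among assembly factors, 3 higher and 2 lower in the tRNA list, and 7 higher and 0 lower in the list of transcription, RNA maturation and replication, beside 14.6% of all genes higher and 14.8% lower in that fit.

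Among 14 transcripts of the mitochondrial genome, 1 was called higher (7.14%, all genes 3.67%), and 0 lower. The called one was the large ribosomal RNA mt-Rnr2, which is the RNA on which the large subunit proteins assemble. It was at 496.0, 675.4 and 549.7 CPM in sgControl and at 793.3 and 818.2 CPM in sgMef2d. Both sgMef2d libraries were above all controls, and sgControl replicate 1 was here the lowest control, whereas in 72 of the 78 members it was above the mean of the other controls. The log2 fold change was 0.49 (standard error 0.10, adjusted p = 0.0142), and without sgMef2d replicate 1 or 2 the adjusted p was 0.108 or 0.167. The small ribosomal RNA mt-Rnr1 was at 291.4, 257.8 and 245.0 CPM in sgControl and at 308.8 and 298.9 CPM in sgMef2d. The groups did not overlap, and the log2 fold change was 0.20. Its adjusted p was 0.130, and 8.79e-09 without sgControl replicate 1. Poly(A) selection keeps only part of these RNAs, so their levels are not those of the ribosome. Of the 14 transcripts 10 were above 0, and their median was 0.10 on the log2 scale. Among the coding transcripts, mt-Co1, the highest in CPM (per length it was mt-Nd1), stood at -0.080 (adjusted p = 0.637). In mt-Co2, at 7.36 to 11.7 CPM in sgControl and 13.7 CPM in both sgMef2d libraries (0.48, adjusted p = 0.122), and in mt-Cytb (0.10, adjusted p = 0.370) both sgMef2d libraries were above all controls. In the other direction, mt-Nd5 had 1814, 1892 and 1934 CPM in sgControl and 1720 and 1610 CPM in sgMef2d. Both sgMef2d libraries were below all controls (-0.18 on the log2 scale, adjusted p = 0.126, and 7.31e-07 without sgControl replicate 1). Without that library 3 of the 14 transcripts were called higher (mt-Rnr2, mt-Rnr1 and mt-Cytb) and mt-Nd5 lower, beside 14.6% and 14.8% of all genes. All 14 together summed to between 22020 and 24640 CPM in sgControl and to 23620 and 22640 CPM in sgMef2d.

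Of 16 regulators of nuclear genes for mitochondrial proteins, 1 was called higher (6.25%, all genes 3.67%) and 0 lower, the called one being Myc. It was at 180.0, 191.3 and 191.3 CPM in sgControl and at 237.5 and 225.2 CPM in sgMef2d, without overlap (log2 fold change 0.30, adjusted p = 0.00885). Without sgMef2d replicate 1 or 2 the adjusted p was 0.192 or 0.0902. Nrf1 (0.093, adjusted p = 0.413), Gabpa (-0.078, adjusted p = 0.491) and Yy1 (-0.030, adjusted p = 0.826), whose binding letters were counted above, did not pass the threshold. Ppargc1a, a coactivator of mitochondrial biogenesis, was at 0.294 to 1.66 CPM and was not called. Without sgControl replicate 1, Myc was called higher and 3 regulators lower (Gabpb2, Sp1 and Atf5), beside 14.6% and 14.8% of all genes. Whether any of these genes bears on the levels of the members was not tested.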

How the data were processed

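Counts of reads per gene in 5 poly(A)-selected, strand-marked RNA-seq libraries were deposited by the authors as whole numbers without normalization. Per the labels and the study's methods, reads were aligned with STAR to GRCm38; the submitters' processing notes also name CASAVA and Subread. The strand setting of the counting is not given in the sources used here. The methods give GENCODE version 22, while 12934 of 12934 gene identifiers matched GENCODE M21, 12811 with the same version. The deposited list had already been filtered for low counts. Libraries were grouped by their labels, and every column was used.

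The counts were analysed with edgeR 4.0.16 (R 4.3.3): TMM factors (0.996 to 1.003), the default expression filter by condition (12483 genes), the quasi-likelihood test (bias-adjusted, legacy=FALSE) and Benjamini-Hochberg adjustment over all genes tested. The biological coefficient of variation was 0.0607. CPM are counts scaled to a common library total, with the log2 CPM behind the medians scaled by TMM with a prior count of 2. Member counts ran from 13 to 2783 per library, and 75 members had at least 200 in every library, so that counting error is largest in Mrpl53, Mrpl55 (74 to 148 counts) and Mrps16. PCR duplicates could not be recognised.

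The members, the lists and the tests were chosen with earlier results of these data known. Members are described by counts and medians, beside all genes, and no test was run over a list. Named were members past the threshold, the 4 highest and lowest by fold change and level, class extremes, Mrps36, called genes of related lists, subunits with other names, the 4 strongest gains without sgControl replicate 1, and members sharing words or starts. Others were chosen after their values were seen (Mrpl44, Wdfy1, Gfm1, mt-Rnr1, mt-Co1, mt-Co2, mt-Cytb, mt-Nd1, mt-Nd5, regulators and markers). Alternatives were other normalizations, DESeq2 1.42.0, limma-voom (limma 3.58.1), other filters and thresholds, a replicate block, loess removal of length and GC trends (span 0.3) and leaving out each library. The printed YY1 letters were shortened after counts of a longer form were seen. Pdf, mt-Atp8 and Mycn of the related lists were not among the genes listed. The edgeR script was tested on simulated counts.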

Additional observations from a re-analysis of the deposited data

How the results depend on the processing

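The median log2 fold change of the members stayed above 0 under every alternative run, between 0.076 and 0.18, and so did those of the large and small subunits. The count of members past the threshold, 4, did not hold. It was 7 with the length and GC trend removed (8.97%, all genes 5.1% higher). At a threshold of 0.01 it was 0 and at 0.1 it was 9, counts given without the share of all genes at those thresholds. Without sgControl replicate 1 it was 43 (55.1%, all genes 14.6% higher). Without sgControl replicate 2 it was 2 (2.56%, all genes 2.4% higher), and without replicate 3 it was 1 (1.28%, all genes 3.14% higher). Members with groups apart, 34 in all, numbered 34 to 65 with single libraries left out, 65 without sgControl replicate 1, while over all genes they went from 5132 to between 6117 and 7663. The related lists, with 3 calls in all, had 7 with the length and GC trend removed and 8 with that and the replicate block. They had 25 without sgControl replicate 1, and with all libraries 1 at a threshold of 0.01 and 7 at 0.1. These lists hold 5, 16, 28, 22, 26, 14 and 16 genes tested. Of all genes, 7.95% were called with all 5 libraries and 10.5% with the trend removed. With the block added it was 11.5%, and without sgControl replicate 1 it was 29.4%. Replicate numbers 1 and 2 are shared by both groups, and correlations of deviations between the groups were -0.0133 to 0.0133. With 2 sgMef2d libraries their deviations mirror each other, so these values cannot settle whether the numbers pair the libraries. With the replicate block 4 members, 9 genes of the related lists and 1254 of all genes were called, against 992 without it.

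Of 464 values of 29 named genes under alternatives, 401 kept direction and side of the threshold, 30 lost the call, 19 gained it and 14 changed sign, and the cause was not tested. With the length and GC trend removed, and with the block added to that, the log2 fold change was -0.0094 and -0.026 for Aurkaip1, -0.077 and -0.058 for Mrps21, and -0.059 and -0.099 for Mrps28, which was also -0.013 with the replicate block and -0.020 without sgControl replicate 3. With single libraries left out it ran from -0.28 to 0.022 for Chchd1, -0.18 to 0.045 for Mrps18c and -0.16 to 0.17 for Mrps33, each highest without sgControl replicate 1, and Dap3 was 0.0024 without that library. Mrps35 was -0.0021 without sgMef2d replicate 2, and with single libraries left out Ptcd3 ran from -0.014 (without sgControl replicate 2) to 0.066. With 1 sgMef2d library left, its spread was taken to be that of the sgControl libraries. At the depth of these libraries Mrpl53, with few counts, has an interval too wide to show a change of the size seen in the other members.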
